A study of Mus musculus with 14 samples.

Results

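Serine synthesis and the folate one-carbon cycle were followed through 10 genes of mouse embryonic fibroblasts deprived of amino acids or of glucose. The 10 genes, out of 40800 genes with a symbol in the deposited table, were chosen by symbol. Each was represented by its transcript with the highest read sum across the 14 libraries. Phgdh, Psat1 and Psph encode the enzymes that make serine from a glycolytic intermediate. Shmt1, Mthfd1 and Aldh1l1 encode cytosolic folate enzymes, and Shmt2, Mthfd2, Mthfd1l and Aldh1l2 encode mitochondrial ones.

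The cells were mouse embryonic fibroblasts (MEFs), with no genetic change stated in the labels, in 7 groups of 2 RNA-seq libraries each. The control (0 h) came from high-glucose DMEM with ordinary fetal bovine serum. The other groups were washed and then kept for 3, 6 or 12 h in DMEM that lacked either amino acids or glucose and held 10% dialyzed serum. Starved cells were frozen in dialyzed serum and control cells in ordinary serum, and the control had no change of medium, so each comparison with the control includes these differences in handling. No fed group was collected at 3, 6 or 12 h in the samples used here, so starvation and time in culture cannot be told apart in comparisons with the control. Separate cultures are not named in the labels, and the p-values therefore reflect the spread between 2 libraries per group, which may be technical.

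Summed over the transcript kept for each gene, the libraries held 35270758 to 55349652 reads. Of the 10 genes, 9 passed the filter on low counts and were tested among 17696 genes, and Aldh1l1 was not. Of the 9 fibroblast markers examined, Thy1 was absent, at no more than 0.060 CPM (counts per 1e6 reads, TMM-scaled) in any library. Col3a1 ran from 0.529 to 15.5 CPM and Pdgfra from 2.67 to 11.5 CPM. The summed level of the 9 markers ran from 8291 to 9009.8 CPM in the control, from 2431 to 2634 CPM after 12 h without amino acids and from 6275 to 6324 CPM after 12 h without glucose. Ptprc, Adgre1, Pecam1, Cdh5, Epcam and Cdh1, which mark leukocytes, macrophages, endothelium and epithelium, lay at or below 0.345 CPM in every library. Other markers of the macrophage and endothelial lists were present: Csf1r at 10.9 to 17.7 CPM, Cd68 at 2.44 to 6.72 CPM and Kdr at 3.90 to 23.0 CPM. The 4 endothelial markers together held 4.21 to 5.08 CPM in the control and 12.6 to 23.5 CPM in the starved libraries, and the 4 macrophage markers 14.3 to 14.7 and 15.1 to 23.7 CPM. The neural list of 3, with Sox2 at 0, ran from 33.8 to 73.1 CPM, and the epithelial, adipocyte and muscle lists stayed at or below 5.73 CPM. In bulk RNA, fewer cells of a type and less RNA per cell cannot be told apart, and the part of these marker changes in the results below was not tested.

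Cells build serine from 3-phosphoglycerate, an intermediate of glycolysis, in successive steps catalysed by the products of Phgdh, Psat1 and Psph. Serine hydroxymethyltransferases then split serine into glycine and a one-carbon unit carried on tetrahydrofolate. In mitochondria that unit is oxidised to formate, which is exported and reattached to folate in the cytosol for purine, thymidylate and methionine synthesis. Several of these genes are known targets of ATF4, a transcription factor made when amino acids are short or the endoplasmic reticulum is under stress.

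The stretches of DNA just upstream of 5 of the genes are shown because the genes behaved differently: Mthfd2 rose steeply, Mthfd1 fell without amino acids, Shmt2 and Shmt1 are a mitochondrial and cytosolic pair, and Phgdh opens the pathway. They are RefSeq promoter sequences of build GRCm38.p6, not the GRCm39 build of the counts, written 5′ to 3′ on the strand of the gene from 100 bases before the annotated start. They lie at chr6:83317607-83317704 (minus strand) for Mthfd2, chr12:76255132-76255231 (plus) for Mthfd1, chr10:127522445-127522544 (minus) for Shmt2, chr11:60811266-60811365 (minus) for Shmt1 and chr3:98339991-98340069 (minus) for Phgdh. Bases that lie in an annotated exon of the same gene were trimmed from the Mthfd2 and Phgdh stretches. Capitals mark CCAAT or its reverse complement ATTGG, and in Phgdh the reverse complement of TGACNNNGC.
Mthfd2: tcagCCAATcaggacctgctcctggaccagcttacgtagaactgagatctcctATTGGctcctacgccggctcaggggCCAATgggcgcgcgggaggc
Mthfd1: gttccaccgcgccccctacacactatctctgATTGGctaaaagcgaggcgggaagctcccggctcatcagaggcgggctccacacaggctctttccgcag
Shmt2: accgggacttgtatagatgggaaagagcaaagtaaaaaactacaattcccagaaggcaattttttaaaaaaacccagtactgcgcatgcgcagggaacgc
Shmt1: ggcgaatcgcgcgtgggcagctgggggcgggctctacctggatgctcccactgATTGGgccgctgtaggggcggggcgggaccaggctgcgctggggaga
Phgdh: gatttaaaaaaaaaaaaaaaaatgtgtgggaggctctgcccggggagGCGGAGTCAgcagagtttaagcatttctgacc

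RefSeq promoter windows (250 bases before to 50 bases after a start, 300 bases in all) were found for 9 of the 10 genes, in 10 windows, Psat1 having a pair. Both strands were searched, and no match of one motif overlapped a match of another. The amino acid response core TGATGNAA occurred in 0 of the 10 windows and in 3.97% of all 32851 promoter windows. The antioxidant response core TGACNNNGC occurred in 2 of the 10, those of Phgdh and Psph, and in 12.4% of all windows. The E-box CACGTG occurred in 0 of the 10 and in 7.15% of all. CCAAT, searched after the sequences had been seen, occurred in 7 of the 10 windows and in 37.4% of all, and the 98 bases printed for Mthfd2 hold 3 copies. A match describes letters in a window, and a missing match says only that these letters are not in this window.

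Without amino acids, 8 of the 9 tested genes were higher than in the control at 3, 6 and 12 h, and 1, Mthfd1, was lower at all 3 times. The rise was largest at 6 h for every gene that rose except Aldh1l2, whose step from 6 to 12 h was 0.056 and not past the test with TMM scaling, and 0.27 and past it with library totals as the only scaling (adjusted p 0.00021, edgeR). Against the control, 27.9% of all genes tested were called higher and 32.1% lower at 3 h, 32.3% and 33.3% at 6 h, and 34.9% and 32% at 12 h, with a call meaning that edgeR's quasi-likelihood test gave a p under 0.05 after Benjamini-Hochberg adjustment. The median log2 fold change of the 9 genes was 1.21 at 3 h, 1.63 at 6 h and 1.03 at 12 h, where the medians over all genes were -0.066, -0.0070 and 0.057.

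Without glucose, 8 of the 9 genes were higher at 3 h and all 9 at 6 and 12 h, and none was lower. The group's median log2 fold change grew from 0.81 at 3 h to 1.29 at 6 h and 1.45 at 12 h. Against the same control libraries, 20.3% of all genes were called higher and 23.1% lower at 3 h, 23.3% and 24.2% at 6 h, and 30.4% and 28% at 12 h, with medians over all genes of -0.040, -0.0081 and 0.0079. Both sets of comparisons share the control libraries, so they are not independent of each other.

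**Figure D1:**
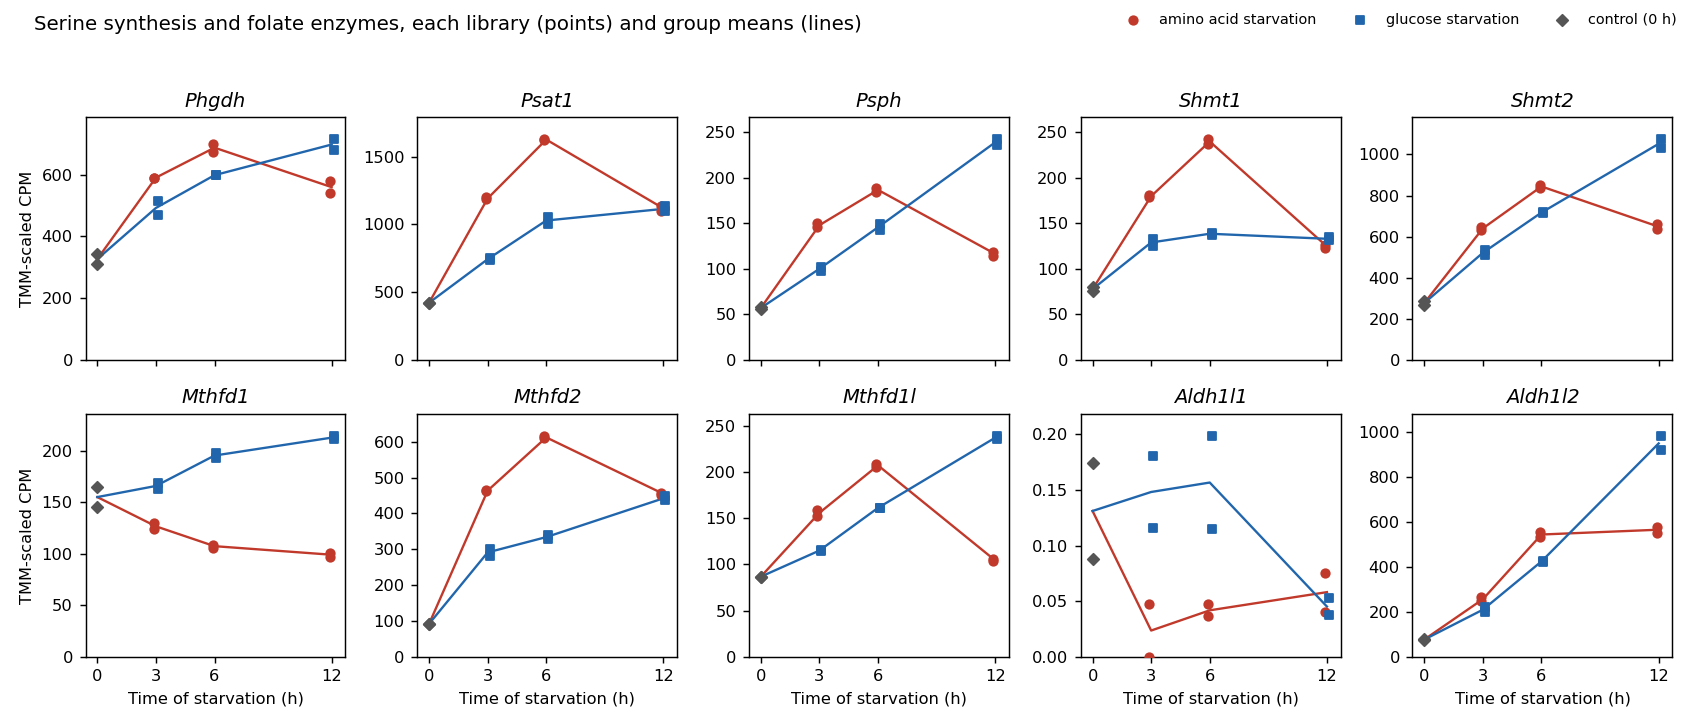
Level of each of the 10 genes in every library (points, TMM-scaled CPM) against hours of starvation, with lines through group means; grey diamonds are the control at 0 h, red circles amino acid starvation and blue squares glucose starvation, 2 libraries each. Most red lines peak at 6 h while most blue lines climb to 12 h, Mthfd1 separates downward in red and upward in blue, and Aldh1l1 stays below 0.2 CPM.

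Per kilobase of transcript, Phgdh and Psat1 were the most abundant of the 10 genes in the control, at 172 and 161 CPM per kilobase, and Shmt2 followed at 121. Phgdh, the 3-phosphoglycerate dehydrogenase that opens the pathway, stood at 343 and 310.2 CPM in the control libraries. Without amino acids it read 590.2 and 590.1 CPM at 3 h, 699 and 675 CPM at 6 h, and 579 and 539.6 CPM at 12 h. Without glucose it read 468 and 515 CPM at 3 h, 598 and 598 CPM at 6 h, and 681 and 714 CPM at 12 h. All starved libraries lay above both controls, and the amino acid series turned down after 6 h while the glucose series did not. The log2 fold change from the control was 1.07 ± 0.059 (SE) after 6 h without amino acids (adjusted p 1.2e-15, edgeR) and 1.09 ± 0.059 after 12 h without glucose (adjusted p 1.1e-15, edgeR), each the largest of its series.

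Psat1, the phosphoserine aminotransferase of the next step, rose further. Its control libraries held 421 and 423 CPM. Amino acid loss brought it to 1184 and 1199 CPM at 3 h, 1626 and 1625 CPM at 6 h, and 1100.2 and 1135 CPM at 12 h. Glucose loss brought it to 737 and 749 CPM at 3 h, 1006 and 1051 CPM at 6 h, and 1096 and 1133 CPM at 12 h. The starvations were far apart at 3 and 6 h and overlapped at 12 h. Psat1 was 3.86-fold above the control after 6 h without amino acids (log2 1.95 ± 0.052, adjusted p 5.8e-23, edgeR).

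Psph, the phosphatase that releases serine, changed its order between the starvations. The control libraries held 58.2 and 55.7 CPM. Without amino acids Psph read 150.1 and 145 CPM at 3 h, 184 and 189 CPM at 6 h, and 114 and 118 CPM at 12 h. Without glucose it read 97.99 and 101.8 CPM at 3 h, 142 and 149 CPM at 6 h, and 235 and 242 CPM at 12 h. Its highest group was thus glucose starvation at 12 h, 4.19-fold above the control (log2 2.07 ± 0.056, adjusted p 1.7e-22, edgeR).

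Part of the Psph signal could come from a neighbouring gene. Of the 1733 bases of the transcript used, 452 (26.1%) overlap exons of Cct6a, a chaperonin subunit gene on the other strand, in the GENCODE M21 annotation of GRCm38. Cct6a stood at 583 to 699 CPM in group means, and whether counting used strand is not given in the sources used here, so reads of the 2 genes cannot be told apart over that stretch. The table also holds a shorter Psph transcript of 785 bases, 4 exons that lie wholly within the longer one and share none with Cct6a. Its reads were 41.1% of those of the longer transcript in the control and 55.5% to 65.1% in the starved group means, and no starved library overlapped a control library. On the short transcript the log2 fold changes were larger: 1.89, 2.31 and 1.55 after 3, 6 and 12 h without amino acids, against 1.38, 1.71 and 1.03 on the long one. Without glucose they were 1.25, 1.90 and 2.73, against 0.81, 1.35 and 2.07.

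**Figure D2:**
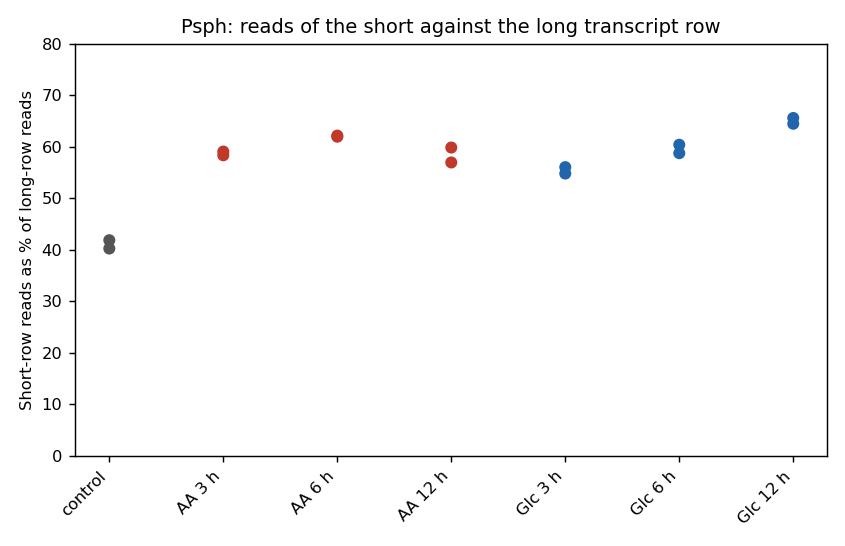
Reads of the 785-base Psph transcript as a percentage of reads of the 1733-base transcript that contains it, in each library (points, 2 per group; AA, amino acid starvation; Glc, glucose starvation). The control libraries sit near 41% and every starved library above 54%.

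The pair of serine hydroxymethyltransferases, which make glycine and a one-carbon unit from serine, diverged over time. Mitochondrial Shmt2 held 287 and 267 CPM in the control. Amino acid starvation gave 648 and 633 CPM at 3 h, 851 and 838 CPM at 6 h, and 660.4 and 636 CPM at 12 h. Glucose starvation gave 509.5 and 533 CPM at 3 h, 720.4 and 714 CPM at 6 h, and 1031 and 1073 CPM at 12 h. Its highest libraries were those of 12 h without glucose, 3.80-fold above the control (log2 1.92 ± 0.055, adjusted p 3.8e-22, edgeR).

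Cytosolic Shmt1 held 79.6 and 75.7 CPM in the control. Levels without amino acids were 179 and 181 CPM at 3 h, 237 and 242 CPM at 6 h, and 122 and 126 CPM at 12 h. Levels without glucose were 125 and 133 CPM at 3 h, 139.7 and 137 CPM at 6 h, and 134 and 131 CPM at 12 h. Without glucose Shmt1 rose by 3 h, and neither later step passed the test (adjusted p 0.15 for 6 h against 3 h and 0.40 for 12 h against 6 h, edgeR). The 3 and 6 h glucose libraries did not overlap, and with library totals that step passed as a rise (log2 0.14, adjusted p 0.043, edgeR). Of its 2858 bases, 184 (6.44%) overlap exons of Smcr8 on the other strand, a gene whose group mean ran from 63.9 CPM in the control to 185, 214 and 172 CPM without amino acids and 66.8, 57.2 and 81.2 CPM without glucose; the part of these reads in the Shmt1 values was not tested. Per kilobase of transcript, the ratio of Shmt2 to Shmt1 was 4.45 ± 0.080 (SD, n = 2) in the control, 4.45, 4.402 and 6.51 after 3, 6 and 12 h without amino acids, and 5.06, 6.47 and 9.89 without glucose.

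Mthfd2, the mitochondrial methylenetetrahydrofolate dehydrogenase, had the largest early response of the 9 genes. Its control libraries both held 91.9 CPM. In amino acid starvation it reached 464 and 463 CPM at 3 h, 615 and 609 CPM at 6 h, and 453 and 457 CPM at 12 h. In glucose starvation it reached 282 and 301 CPM at 3 h, 329 and 339 CPM at 6 h, and 437 and 448 CPM at 12 h. No starved library came near the controls. At 3 h it was 5.05-fold above the control without amino acids (log2 2.34 ± 0.054, adjusted p 1.9e-24, edgeR) and 3.17-fold without glucose (log2 1.66 ± 0.053, adjusted p 1.3e-20, edgeR).

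Mthfd1l, the mitochondrial formyltetrahydrofolate synthetase that releases formate, followed the same early course but lost most of its rise without amino acids. It held 86.6 and 86.8 CPM in the control. The amino acid series read 153 and 159 CPM at 3 h, 209 and 206 CPM at 6 h, and 105 and 103 CPM at 12 h. The glucose series read 116 and 114 CPM at 3 h, 161 and 161 CPM at 6 h, and 239 and 236 CPM at 12 h. At 12 h it stood little above the control without amino acids (log2 0.27 ± 0.052, adjusted p 5.1e-05, edgeR) and 2.74-fold above it without glucose (log2 1.45 ± 0.052, adjusted p 1.1e-19, edgeR).

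Aldh1l2, a mitochondrial formyltetrahydrofolate dehydrogenase that yields carbon dioxide and NADPH, had the largest single fold change of the 9. The control libraries held 76.3 and 77.3 CPM. Without amino acids it read 265 and 248 CPM at 3 h, 555 and 532 CPM at 6 h, and 578 and 553 CPM at 12 h. Without glucose it read 221 and 198 CPM at 3 h, 423 and 426 CPM at 6 h, and 980.3 and 917 CPM at 12 h. That last group was 12.4-fold above the control (log2 3.63 ± 0.064, adjusted p 7.2e-27, edgeR), and the amino acid groups of 6 and 12 h overlapped each other. In GENCODE M21, 1056 of its 6027 bases (17.5%) overlap D10Wsu102e on the other strand. A second Aldh1l2 transcript that shares no base with that gene gave log2 fold changes of 2.83 after 6 h without amino acids and 3.62 after 12 h without glucose, against 2.82 and 3.63 here.

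Mthfd1, whose cytosolic product joins formate to folate and interconverts the one-carbon forms, moved in opposite directions. The control libraries held 164 and 145 CPM. Cells without amino acids held 129 and 124 CPM at 3 h, 109 and 106 CPM at 6 h, and 101 and 96.9 CPM at 12 h. Cells without glucose held 168 and 163 CPM at 3 h, 198 and 192 CPM at 6 h, and 214 and 211 CPM at 12 h. All amino acid libraries lay below both controls, the 3 h glucose libraries overlapped them, and the later glucose libraries lay above. The log2 fold changes were -0.29, -0.53 and -0.65 without amino acids, with an adjusted p of 7.5e-05 at 3 h (edgeR). Without glucose they were 0.097, 0.33 and 0.46, the first not past the test (adjusted p 0.18, edgeR). That 3 h value rested on a control library: without control replicate 1 it was 0.18 (adjusted p 0.021, edgeR).

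Aldh1l1, the cytosolic counterpart of Aldh1l2, was close to absent. It had 50 reads in all 14 libraries together and no more than 0.198 CPM in any. Without the filter on low counts it passed the test in 0 of 14 comparisons, with 0 at an unadjusted p under 0.05 and adjusted p from 0.27 to 1 (edgeR). Changes of this gene were not detectable at this depth.

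**Figure D3:**
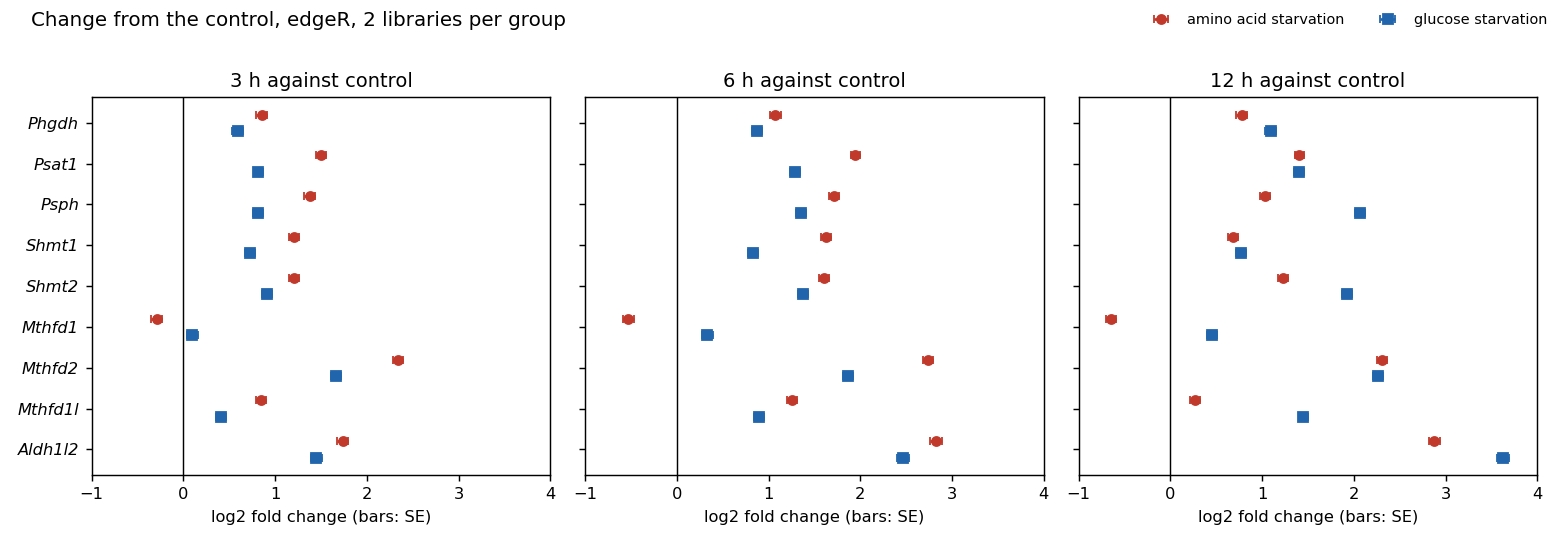
Log2 fold change from the control (x axis; bars are standard errors from edgeR, 2 libraries per group) for the 9 tested genes (y axis) at 3, 6 and 12 h of amino acid (red circles) and glucose (blue squares) starvation. Aldh1l2 and Mthfd2 lie farthest to the right, and Mthfd1 is the gene with red points left of 0.

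For most of the genes the time courses parted in direction after 6 h, while those of Mthfd1 had parted before. From 3 to 6 h without amino acids, 8 of the 9 genes rose and Mthfd1 fell (24.7% of all genes were called higher and 25.4% lower). The fall of Mthfd1 was 0.24, and with library totals it was 0.14 and missed the threshold (adjusted p 0.050, edgeR). From 6 to 12 h, 0 rose and 7 fell, while Aldh1l2 and Mthfd1 did not pass the test (27.8% and 27.1% of all genes). The steepest falls were those of Mthfd1l (log2 -0.99 ± 0.052, adjusted p 8.7e-16, edgeR) and Shmt1 (-0.95 ± 0.053, adjusted p 5.5e-15, edgeR), and the smallest that of Phgdh (-0.30 ± 0.058, adjusted p 7.2e-05, edgeR). The step of Mthfd1 was -0.12 ± 0.058 (adjusted p 0.094, edgeR), passed as a fall with DESeq2 (-0.17, adjusted p 0.014), RLE factors (adjusted p 0.016, edgeR), the stricter filter (0.048) and the compared groups alone (0.039), and turned positive with library totals (0.095, adjusted p 0.18, edgeR). With library totals in place of TMM scaling, the fall of Phgdh was 0.086 and did not pass the test (adjusted p 0.21, edgeR), and the step of Aldh1l2 passed as the rise given above.

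Without glucose, 8 of the 9 genes rose from 3 to 6 h and 0 fell, Shmt1 being the exception (17.8% of all genes were called higher and 15.5% lower). The step of Mthfd2 was small, at 0.20 ± 0.051 (adjusted p 0.0033, edgeR), and without replicate 2 of the 6 h glucose group it was 0.18 and missed the threshold (adjusted p 0.052, edgeR). From 6 to 12 h, 6 rose and 0 fell (25.6% and 21.9% of all genes). Aldh1l2 rose most in that step, by 1.16 ± 0.057 (adjusted p 5.0e-16, edgeR), followed by Psph, Mthfd1l, Shmt2, Mthfd2 and Phgdh. Psat1 (0.12 ± 0.050, adjusted p 0.059), Mthfd1 (0.12 ± 0.057, adjusted p 0.079) and Shmt1 did not pass it (edgeR). Psat1 passed as a rise with DESeq2 (adjusted p 0.043) and with library totals (adjusted p 0.016, edgeR), and Mthfd1 with library totals (adjusted p 0.035, edgeR).

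Set against each other directly, amino acid starvation gave higher levels than glucose starvation at 3 and 6 h in 8 of the 9 genes and a lower level of Mthfd1. Of all genes tested, 26.7% were called higher and 27.7% lower without amino acids at 3 h, and 31.5% and 32.3% at 6 h. Mthfd2 and Psat1 differed most at 3 h, with log2 differences of 0.67 ± 0.051 and 0.68 ± 0.050. Mthfd2 and Shmt1 differed most among the higher genes at 6 h, with 0.87 ± 0.051 and 0.79 ± 0.054. These comparisons hold no control library and set together cells that were washed and frozen in the same serum.

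At 12 h the order had turned for Phgdh, Psph, Shmt2, Mthfd1l and Aldh1l2, and Mthfd1 stayed lower without amino acids. Of the 9 genes, 0 were higher without amino acids, 6 were lower and 3 did not pass the test (32.5% of all genes were called higher and 31.6% lower). Mthfd1l (log2 -1.19 ± 0.052), Mthfd1 (-1.10 ± 0.058), Psph (-1.04 ± 0.054), Aldh1l2 (-0.75 ± 0.057), Shmt2 (-0.70 ± 0.053) and Phgdh (-0.32 ± 0.058) were lower. The differences for Psat1, Mthfd2 and Shmt1 were 0.0043 ± 0.050, 0.040 ± 0.051 and -0.095 ± 0.054. With library totals as the only scaling, 3 were higher and 5 lower: Mthfd2 (0.28), Psat1 (0.24) and Shmt1 (0.14) passed the test as higher and Phgdh (-0.080) no longer passed, while the median over all genes moved from 0.028 to 0.27.

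The change between 3 and 12 h was itself tested, as the amino acid to glucose difference at 12 h minus that at 3 h. All 9 tested genes were past the threshold on the lower side, against 21.7% of all genes on the higher and 25.7% on the lower side. The median over the 9 genes was -0.71, and over all genes -0.017. The shift was largest for Mthfd1l (-1.62 ± 0.073, adjusted p 8.3e-17, edgeR) and Psph (-1.60 ± 0.077, adjusted p 3.1e-16, edgeR), and smallest for Shmt1 (-0.57 ± 0.076, adjusted p 2.8e-07, edgeR) and Phgdh (-0.58 ± 0.082, adjusted p 8.6e-07, edgeR). On the short Psph transcript, which shares no base with Cct6a, it was -1.83 ± 0.088 (adjusted p 1.4e-15, edgeR), larger than that of Mthfd1l. In Mthfd1 the difference was negative at both times and widened.

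**Figure D4:**
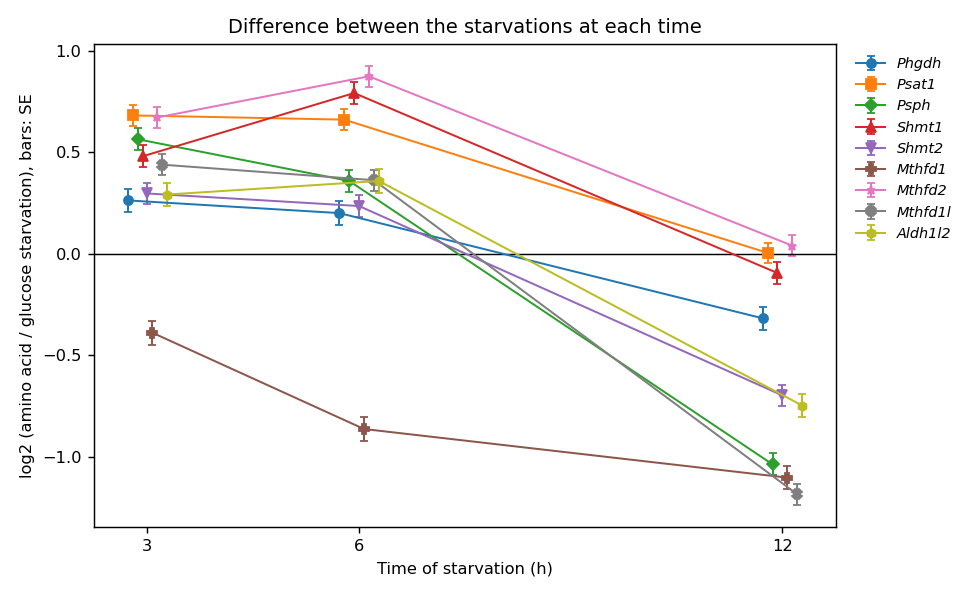
Log2 ratio of amino acid to glucose starvation (y axis; bars are standard errors from edgeR) at 3, 6 and 12 h for the 9 tested genes, with points shifted sideways for legibility. All genes but Mthfd1 lie above 0 at 3 and 6 h; at 12 h 6 genes lie clearly below 0 and Psat1, Mthfd2 and Shmt1 near it.

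Per kilobase of transcript, which allows genes to be added together, the 10 genes summed to 659.8 and 626 CPM per kilobase in the control libraries. The sum rose to a mean of 2018 ± 16.4 (SD, n = 2) after 6 h without amino acids and returned to 1487 ± 13.1 at 12 h. Without glucose it rose without a turn, to 1131, 1489 and 1938. Serine synthesis genes made up 57.0% of the sum in the control and 48.1% after 12 h without glucose, where the mitochondrial folate genes reached 46.1%, from 31.3%.

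The summed level of the mitochondrial folate genes rose relative to that of the cytosolic ones in both starvations, but not in every pair at every time. The mitochondrial sum was 2.69 ± 0.098 times (SD, n = 2) that of the cytosolic genes in the control, 5.77, 6.92 and 8.42 times after 3, 6 and 12 h without amino acids, and 4.51, 5.41 and 7.98 times without glucose. No starved library overlapped the controls. Without amino acids the cytosolic sum at 12 h, 74.1 CPM per kilobase, was near the 74.98 of the control, while the mitochondrial sum was 623 against 201. That cytosolic sum joins opposite changes: Shmt1 went from 27.2 in the control to 43.5 CPM per kilobase, and Mthfd1 from 47.8 to 30.5. Without glucose at 12 h the cytosolic sum was 112 and the mitochondrial sum 894 CPM per kilobase. The ratio of Mthfd2 to Mthfd1 changed most among the pairs examined in amino acid starvation, from 0.926 ± 0.080 to 8.88 ± 0.118 at 6 h, and reached 3.24 ± 0.087 after 12 h without glucose (SD, n = 2). The ratio of Shmt2 to Shmt1 given above was nearly level to 6 h without amino acids. Mitochondrial Mthfd1l was 1.80-, 2.39- and 1.20-fold the control after 3, 6 and 12 h without amino acids, less than the 2.31-, 3.08- and 1.60-fold of cytosolic Shmt1.

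**Figure D5:**
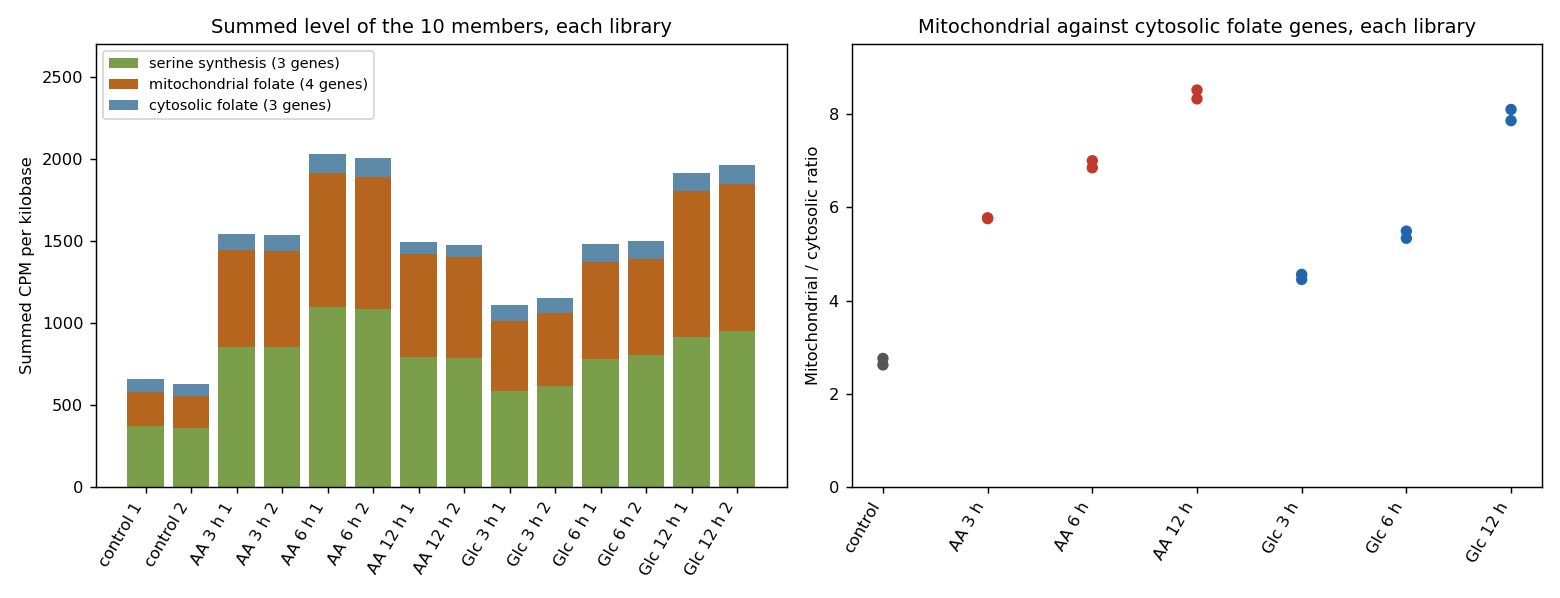
Left, summed level of the 10 genes in each library, in CPM per kilobase, stacked as serine synthesis (green), mitochondrial folate (brown) and cytosolic folate genes (blue); right, ratio of the mitochondrial to the cytosolic sum in each library (points). AA is amino acid and Glc glucose starvation; the stacks are highest after 6 h without amino acids and 12 h without glucose, and the ratio climbs from 2.69 in the control to 8.42 and 7.98 in the group means of 12 h.

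Atf4 itself, the factor known to act on several of these genes, was higher in every starved library. It held 304 and 314 CPM in the control, 1134 and 1174 CPM after 3 h without amino acids, 1014 and 1031 CPM after 6 h, and 852 and 888 CPM after 12 h. Without glucose it held 815 and 860.1 CPM at 3 h, 994 and 1027 CPM at 6 h, and 909 and 947 CPM at 12 h. The starvations differed at 3 h (log2 0.46 ± 0.052, adjusted p 1.3e-08, edgeR), and not past the threshold at 6 h (0.017 ± 0.052, adjusted p 0.79, edgeR) or 12 h (-0.093 ± 0.052, adjusted p 0.12, edgeR). The message of Atf4 does not report its protein, which is controlled at translation.

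Genes around the pathway were counted in 5 lists, and the genes named as highest or lowest are so among those that passed the test. At 6 h, 32.3% of all genes were called higher and 33.3% lower without amino acids, and 23.3% and 24.2% without glucose. The plasma membrane carriers of serine, glycine and related amino acids were higher: 5 of 5 tested passed the test above the control in each of the 6 groups, where 20.3% to 34.9% of all genes did. Slc6a9, the glycine carrier GlyT1, had the largest change of the list at 6 h in both starvations (log2 4.07 without amino acids, from 18.1 to 303 CPM, and 3.24 without glucose). The smallest of the carriers' changes at 6 h were Slc38a1 without amino acids (1.68) and Slc38a2 without glucose (0.50). Slc7a10 was too low to test. The lists' medians at 6 h were 2.06 and 1.14 for the carriers.

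The folate entry and activation list did not move one way (32.3% of all genes were higher and 33.3% lower without amino acids, 23.3% and 24.2% without glucose). After 6 h without amino acids, 2 of its 8 tested genes were higher and 5 lower (median log2 -0.56), and without glucose 3 were higher and 2 lower (median -0.079). Slc19a1, the reduced folate carrier, was the highest without glucose (1.13). Folr2 was the lowest without amino acids (-2.09), at 0.481 CPM or less in group means, and Mthfs the lowest called without glucose (-0.75), where Folr2 was at -1.81 and did not pass (adjusted p 0.095, edgeR).

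Of 7 tested genes of mitochondrial serine and glycine use, 1 was higher and 4 lower after 6 h without amino acids, and 2 were higher and 0 lower without glucose. The higher counts were near the share of all genes for glucose (23.3%) and below it for amino acids (32.3%). The lower counts were above the share of all genes for amino acids (33.3%) and below it for glucose (24.2%). Dld, a subunit shared by the glycine cleavage system and ketoacid dehydrogenases, was the highest in both (0.69 and 0.56), Sfxn1, the mitochondrial serine carrier, was the lowest without amino acids (-0.93), and Sfxn3 had the smaller of the rises without glucose (0.33). Gldc, the glycine decarboxylase, was too low to test. Nucleotide synthesis, which uses folate or glycine at some of its steps, was followed through 10 genes. Without amino acids 4 of them were higher and 3 lower, and without glucose 6 were higher and 1 lower. The counts without amino acids are near the shares over all genes (32.3% and 33.3%), against 23.3% and 24.2% for glucose. Ppat, the first step of purine synthesis, led without amino acids (0.44) and Adsl fell most (-1.21). Pfas led without glucose (0.74), where Tyms, thymidylate synthase, fell (-0.44).

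Of 8 genes of the methionine cycle and transsulfuration, 4 were higher and 2 lower after 6 h without amino acids, and 5 higher and 1 lower without glucose, beside shares over all genes of 32.3% and 33.3%, and of 23.3% and 24.2%. Cth, cystathionine gamma-lyase, was the highest in both (log2 3.02 and 2.66), from 3.10 CPM in the control. Mat2b, a regulatory subunit of methionine adenosyltransferase, was the lowest in both (-0.75 and -0.37).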

How the data were processed

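RNA of MEFs was sequenced in 14 libraries of 7 groups, grouped by the sample titles. The authors deposited whole-number read counts per transcript, made with STAR and bedtools on GRCm39, per the submitters' processing notes; versions, annotation and the counting and strand rule are not given in the sources used here. A deposited column, named as a gene length per the file headers, gave the bases used for CPM per kilobase. 58 lines without a gene symbol held 0% of reads. For the 32.9% of genes with several transcript lines, the one with the highest sum was kept, which leaves reads of other transcripts out.

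Counts were scaled by TMM and tested with edgeR 4.0.16 (limma 3.58.1, R 4.3.3) by the quasi-likelihood test with robust dispersion on 7 group means (all 14 libraries, 7 residual degrees of freedom), two-sided, after filterByExpr (minimum count 10). Benjamini-Hochberg adjustment ran over 17696 genes with a threshold of 0.05. The procedure was tested on simulated data, with independent counts and changes planted in a small share of genes of a single group. That setting differs from these data, where a large share of genes was called, so it does not test the scaling used here. Replicates differed beyond sampling noise in every group. Of the values from 1 to 20 reads, 71.2% were even, so reads are not independent molecules.

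The 10 genes, the surrounding lists and the tests were chosen with earlier results of these data known. Named genes are the 10 members, Atf4 and, for each list, the genes with the highest and the lowest called log2 fold change at 6 h of each starvation; 1 gene that this rule names is not reported here. Alternatives were RLE factors, library totals, DESeq2 1.42.0, no or a stricter filter, the second transcript line per gene, the compared groups alone, a replicate block and leaving out each library. A gene with a single transcript line kept that line in the second-line alternative.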

Additional observations from a re-analysis of the deposited data

Results flagged for a closer look

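For each of the 9 tested genes, the difference between amino acid and glucose starvation was not the same at 12 h as at 3 h, by a test of that difference itself (edgeR's quasi-likelihood test). The log2 shift was -1.04 for Aldh1l2, -0.71 for Mthfd1, -1.62 for Mthfd1l, -0.63 for Mthfd2 and -0.58 for Phgdh. It was -0.68 for Psat1, -1.60 for Psph, -0.57 for Shmt1 and -0.99 for Shmt2. Of all genes tested, 25.7% shifted to the same side, and all 9 remained past the threshold under every alternative run. The summed fibroblast markers fell further in amino acid than in glucose starvation over the same hours, and their part in these shifts was not tested.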

How the results depend on the processing

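All 14 counts of called genes stayed within 1.5 times of the reported count under every alternative. With 9 genes tested and no reported count below 6, an increase could not pass that limit. The limit also takes no account of direction, which changed for some genes with library totals at 12 h, as given above. Of 1548 single-gene values recomputed, 1520 kept their direction and call, 9 turned, 15 gained a call and 4 lost it. Part of this agreement was fixed in advance. Phgdh, Shmt1 and Mthfd2 have 1 transcript line each, so the second-line alternative used the same counts for them. For Shmt2, Mthfd1 and Mthfd1l the second line held 99.98%, 99.85% and 99.43% of the reads of the line used. The turned values were all small. The Psat1 difference between the starvations at 12 h (0.0043) became -0.0040 with RLE factors and -0.0040 with DESeq2, -0.014 without a filter, -0.019 with the compared groups alone, -0.044 without amino acid starvation 12 h replicate 2 and -0.019 without glucose starvation 12 h replicate 1 (its range over single libraries left out was -0.044 to 0.024). Library totals gave -0.071 for Mthfd1 at 3 h of glucose starvation, 0.095 for Mthfd1 from 6 to 12 h without amino acids and 0.14 for the Shmt1 difference at 12 h. Leaving out 1 library moved the count from 8 to between 8 and 9 for glucose starvation at 3 h and to between 7 and 8 for its step from 3 to 6 h, and no other count.

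Library totals also shifted the share of calls that were higher: from 46.5% to 34.2% (amino acids, 3 h), 46.8% to 25.7% and 49.0% to 33.1% (glucose, 3 and 6 h), 50.8% to 65.5% (between starvations, 12 h), 49.3% to 60.6% and 50.6% to 69.3% (amino acids, later steps) and 45.8% to 66.0% (the shift from 3 to 12 h). Libraries of the same replicate number showed little shared deviation: 21 correlations of same-numbered deviations ran from -0.035 to 0.054. These correlations cannot show whether such libraries shared a culture or a batch, which the labels do not state. With the replicate number as a block, 8 genes passed from 6 to 12 h in each starvation, in place of 7 and 6, and other counts were unchanged. With 2 libraries per group, small steps such as those of Mthfd1 are the least certain, and Aldh1l1 is below what this depth resolves.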

Other observations

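Mthfd2l belongs to the surrounding lists and was singled out after its values were seen. This mitochondrial relative of Mthfd2 did not share its rise. It held 13.6 and 15.04 CPM in the control and passed the test at 12 h only, where it was lower in both starvations: log2 -0.98 without amino acids (adjusted p 1.0e-08, edgeR) and -0.54 without glucose (adjusted p 0.00015, edgeR). At those times Mthfd2 was 4.95-fold and 4.81-fold above the control.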
